A study of Capra hircus with 9 samples.

Results

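The 38 mature goat miRNAs described here are those whose miRBase number is 1000 or above. They were chosen by name from the count table: every row called chi-miR with such a number was taken, except miR-1185, miR-1193, miR-1197 and miR-3955 to miR-3959, and at least 1 count in any library was required. The name rule matched 39 of 1359 rows, and chi-miR-2320 was left out because it had 0 counts in all 9 libraries. Just inside the limit were chi-miR-2290 with 1 count in each of 2 libraries, chi-miR-1291 with 3 counts in DP replicate 2 alone, and chi-miR-1468-3p with 4 counts in DP replicate 2 and 1 in LG replicate 3. The libraries came from whole mammary gland tissue of healthy Laoshan dairy goats of parity 3 with a mean age of 4 years, untreated and kept on 1 farm. The stages were late lactation (LL, day 240 postpartum), the dry period (DP, day 300 postpartum) and late gestation (LG, day 140 from mating). Each stage had 3 goats and 3 libraries. Each goat was sampled after slaughter, so the stages are different animals and no goat was followed over time.

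A miRNA is cut from a hairpin transcript, and either arm of the hairpin (5p or 3p) can be loaded into an Argonaute protein, which it guides to mRNAs that match its seed. miRBase numbers follow the order of discovery. Abundant and widely conserved miRNAs were found early, so high numbers hold many miRNAs of low abundance, narrow species range or recent origin. A high number is not itself a measure of age, and these data hold no measure of it. Of the 38, 14 carry a number that also names a human miRNA (miR-1224, miR-1248, miR-1249, miR-1271, miR-1291, miR-1296, miR-1306, miR-1307, miR-1343 and miR-1468), and miR-1388 was first named in fish. The label of ruminant or young miRNAs thus covers only some of them. The miR-2284 family, which is greatly expanded in cattle, gave 5 of the 38.

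The libraries held 13672653 to 34378995 counts in total, so that 3 counts, the limit that a count of 0 allows, corresponded to 0.0873 to 0.219 CPM (counts scaled to a common library total), a limit that covers counting error only. Levels below are CPM scaled by TMM, a method that estimates library scaling from most miRNAs rather than from the total. chi-miR-148a-3p took 53.6% ± 5.51 (SD, n = 3) of the counts in LL, 9.61% ± 1.07 in DP and 42.5% ± 2.74 in LG, which moves every value that is relative to the total. The summed levels of marker miRNAs of other cell types also differed between libraries, and for several of the lists the ranges of the stages overlapped. The summed level of 8 epithelial miRNAs (the miR-200 family and the miR-183 cluster) was 14060 to 22390 CPM in DP against 34930 to 43020 CPM in LL and LG. The sum of 4 white blood cell miRNAs was 778 to 1968 CPM in DP, against 600 to 814 CPM (LL) and 246 to 363 CPM (LG). That of 5 skeletal muscle miRNAs was 971 to 3444, 720 to 932 and 419 to 530 CPM in the same order, and that of 3 red blood cell miRNAs was 122 to 1284, 364 to 551 and 87.1 to 168 CPM. For 2 endothelial miRNAs the sum was 19030 to 31970 CPM in DP, against 15850 to 22980 CPM (LL) and 14720 to 16360 CPM (LG), and for 4 miRNAs of smooth muscle, myoepithelium and stroma it was 33690 to 129700, 72840 to 118300 and 54140 to 62580 CPM. No listed marker had 0 counts throughout. Their part in the differences below was not tested, and in whole tissue fewer cells of a type and less of a miRNA per cell cannot be told apart.

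Together the 38 miRNAs took a small share of each library, 0.112%, 0.163% and 0.113% of the counts in LL, 0.185%, 0.188% and 0.208% in DP, and 0.140%, 0.129% and 0.151% in LG. The DP libraries lay above all others. When the total omitted chi-miR-148a-3p, the order of the stage means turned, to 0.277% ± 0.0374 (SD, n = 3) in LL, 0.214% ± 0.0120 in DP and 0.243% ± 0.00930 in LG, and the DP share was then the lowest of the 3. Of the 38, 4 had a mean of at least 100 CPM, 10 at least 10 CPM and 17 under 1 CPM, and none reached 1000 CPM. The other 393 known miRNAs with counts had 53 above 1000 CPM and a median of 18.0 CPM, the 38 a median of 1.92 CPM, and the 872 predicted miRNAs a median of 0.188 CPM. The 7 most abundant members held 89.9% of the members' counts in LL, 90.7% in DP and 83.9% in LG.

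The top of the list was chi-miR-3431-5p with a mean of 362 CPM, rank 97 of the 1303 miRNAs with counts. It was followed by chi-miR-1468-5p (292 CPM), chi-miR-3432-5p (260 CPM) and chi-miR-1839 (197 CPM), at ranks 104, 109 and 119. The next 4 were chi-miR-3431-3p (93.7 CPM), chi-miR-1271-5p (89.8 CPM), chi-miR-1388-5p (74.8 CPM) and chi-miR-1307-3p (60.4 CPM). The ranges of neighbours in this order overlapped between libraries. The 4 members with numbers of 3000 or above, the arms of miR-3431 and miR-3432, had means of 3.90 to 362 CPM. The 11 members numbered from 2000 to below 3000 outside the miR-2284 family reached at most 5.45 CPM, for chi-miR-2411-5p. The members with the highest numbers were thus not those of the lowest level.

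**Figure D1:**
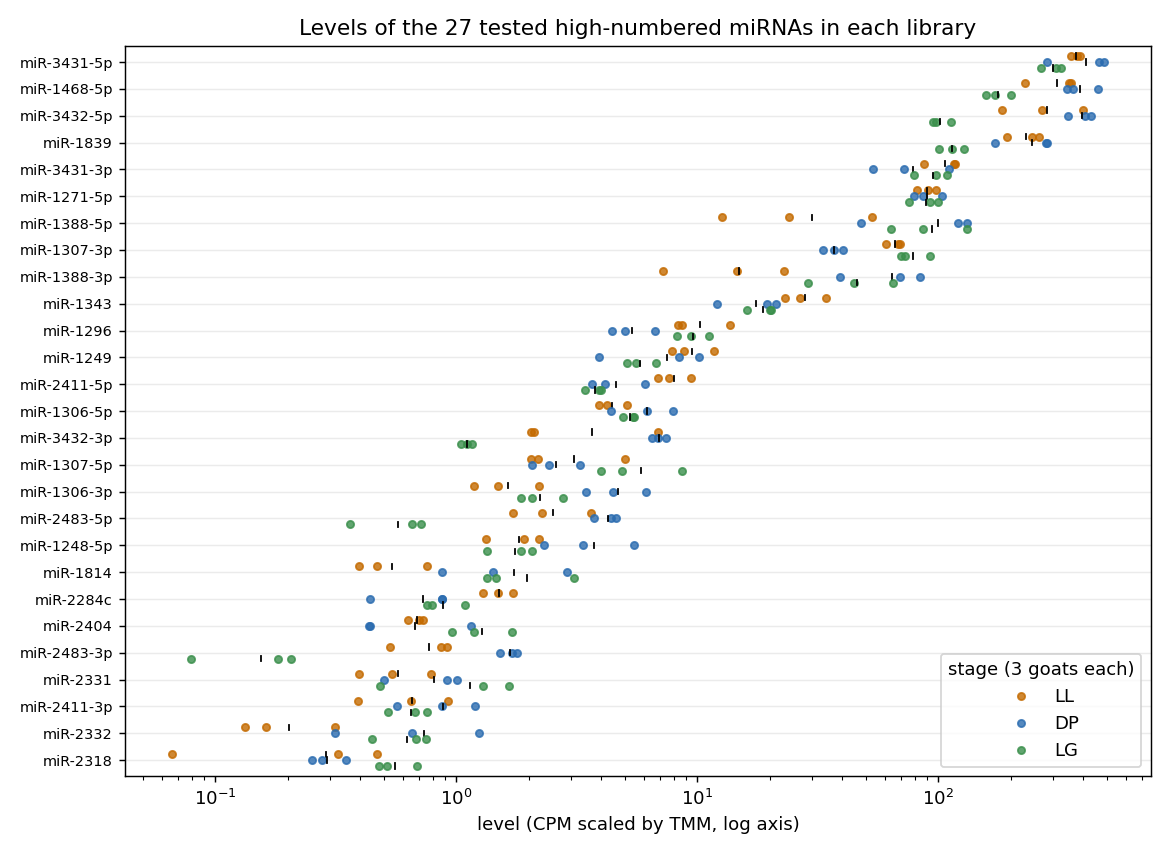
Level of the 27 tested members in each library (points, CPM scaled by TMM, log axis), with the mean of each stage as a black tick and members ordered by their overall mean. The levels span from 362 CPM for chi-miR-3431-5p to 0.379 CPM for chi-miR-2318, and the LG points of both miR-3432 and both miR-2483 arms lie to the left of all DP and LL points.

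The 38 mature miRNAs come from 29 hairpins, and the RefSeq annotation of the assembly ARS1.2 gave a gene for each. Of these genes, 27 were placed on 16 chromosomes and 2 (MIR3431 and MIR1306) were on sequence not assigned to one. Among the placed genes 19 (70.4%) lay within the span of a protein-coding gene, against 82 of the 222 other placed miRNA genes (36.9%). Strand and exons were not compared. None of the 27 had another annotated miRNA gene within 10 kb, while 119 of the 222 others (53.6%) did. The choice of members bears on this comparison, since the numbers left out by the rule lie in a large imprinted cluster. MIR1307 (chromosome 26, 27776580 to 27776728) lay in USMG5, which encodes a subunit of the mitochondrial ATP synthase. MIR1343 (chromosome 15, 17474825 to 17474905) lay in PDHX, a component of the pyruvate dehydrogenase complex, and MIR3432 (chromosome 25, 33688671 to 33688764) in HIP1, an adaptor of endocytosis. MIR2411 (chromosome 3, 103867804 to 103867878) lay in UBAP2L and MIR2404 (chromosome 29, 592419 to 592484) in TAF1D, a factor of RNA polymerase I transcription. The genes of miR-1468, miR-2284b and miR-2483 were on the X chromosome, MIR2483 (18209222 to 18209301) within TENM1. MIR1388 (chromosome 13, 53224886 to 53224977) lay in no other annotated gene.

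Differential expression was tested with edgeR's quasi-likelihood test over all 696 miRNAs that reached 0.5 CPM in 3 or more libraries, in a fit of all 9 libraries. A call of differential expression required an absolute log2 fold change above 1 together with an adjusted p (Benjamini-Hochberg) under 0.05. Of the 38 members 27 were tested. The other 11 had at most 14 counts in any library. In at least 1 of the 3 comparisons 12 of the 27 (44.4%) were differentially expressed, against 304 of all 696 (43.7%). By mean TMM-scaled level 14 of the 27 were highest in DP, 7 in LL and 6 in LG, beside 299, 220 and 177 of all 696. Scaling by library size only gave 12, 3 and 12 of the members and 310, 104 and 282 of all.

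In DP vs. LG, 7 members were higher in DP and 1 was lower. Both arms of miR-2483 and both arms of miR-3432 showed the largest rises, between 3.87-fold and 10.2-fold, and chi-miR-1307-3p was lower by 2.13-fold. The 8 calls are 29.6% of the 27, beside 31.5% (219) of all tested miRNAs. Of all tested miRNAs 21.6% were higher and 9.91% lower in DP. The split depended on the scaling: with library size only, 4 members were higher and 2 lower, and of all tested miRNAs 116 were higher and 85 lower in place of 150 and 69. The libraries of both stages did not overlap for 12 of the 27 members, 44.4%, where the share of all tested miRNAs was 44.7%. The log2 fold change had a median of 0.26 over the members and 0.18 over all tested miRNAs.

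miR-2483 was the member with the largest difference. chi-miR-2483-5p had 0.652, 0.711 and 0.363 CPM (LG), 4.39, 3.72 and 4.62 CPM (DP) and 3.61, 1.72 and 2.27 CPM (LL). Every LG library lay below every LL and DP library, and DP lay above LL. DP vs. LG gave 2.89 on the log2 scale (SE 0.42, adjusted p = 0.000628). The 3p arm was less abundant and rested on few reads, with 6, 2 and 8 counts for LG, 27, 33 and 41 for DP, and 11, 8 and 17 for LL. DP exceeded LG by 3.35 on the log2 scale (SE 0.45, adjusted p = 0.000451). The 95% intervals of both arms, 1.97 to 3.81 for 5p and 2.35 to 4.35 for 3p, overlapped.

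For miR-3432 the 5p arm was the abundant one. chi-miR-3432-5p had 113, 94.8 and 97.6 CPM (LG), 344, 431 and 406 CPM (DP) and 269, 399 and 184 CPM (LL). The 3 LG libraries were close together and below the rest, and the LL libraries were spread over a range that reached into that of DP. chi-miR-3432-3p had 1.17, 1.11 and 1.04 CPM (LG), 7.41, 6.85 and 6.50 CPM (DP) and 2.04, 6.87 and 2.11 CPM (LL), where replicate 2 lay at the level of DP. DP vs. LG gave 1.95 for 5p (log2 scale, SE 0.29, adjusted p = 0.000731) and 2.64 for 3p (SE 0.48, adjusted p = 0.00197).

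chi-miR-1307-3p, a predicted regulator of IGF1R (the receptor of insulin-like growth factor 1), was the member that fell. It had 72.8, 70.2 and 92.3 CPM (LG), 36.8, 33.2 and 40.4 CPM (DP) and 60.9, 69.2 and 68.1 CPM (LL). DP was the low stage, below every library of the others. DP vs. LG gave −1.09 on the log2 scale (SE 0.24, adjusted p = 0.00526). The minor arm chi-miR-1307-5p had 4.87, 3.99 and 8.68 CPM (LG) and 2.07, 2.44 and 3.27 CPM (DP), with a fold change of −1.17 on the log2 scale (SE 0.45, adjusted p = 0.0664) that did not pass. It was called in 9 of 18 alternative fits, DESeq2 (−1.36, adjusted p = 0.0109) among them.

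The other rises in DP vs. LG were close to the required size. chi-miR-1468-5p had 200, 173 and 158 CPM (LG), 342, 460 and 362 CPM (DP) and 229.8, 349 and 357 CPM (LL), with a fold change of 1.13 on the log2 scale (SE 0.25, adjusted p = 0.00554). chi-miR-1839 had 115, 101 and 128 CPM (LG), 173, 282 and 281 CPM (DP) and 261, 244 and 192 CPM (LL), with a fold change of 1.098 on the log2 scale (SE 0.26, adjusted p = 0.00840). For both, LG was the low stage and LL and DP overlapped. chi-miR-1306-3p, whose human hairpin lies in the gene of the miRNA-processing protein DGCR8, had 1.85, 2.76 and 2.06 CPM (LG), 4.46, 6.11 and 3.45 CPM (DP) and 1.49, 1.19 and 2.21 CPM (LL). Here DP was high and the other stages overlapped. Its difference from LG, 1.07 on the log2 scale (SE 0.37, adjusted p = 0.0443), passed both limits in 1 of 18 alternative fits, those of chi-miR-1468-5p and chi-miR-1839 in 5 and 4 of 18. Without LL replicate 1, LG replicate 2 or LG replicate 3, 5 members were called in place of 8, and 197, 164 and 152 of all tested miRNAs in place of 219.

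**Figure D2:**
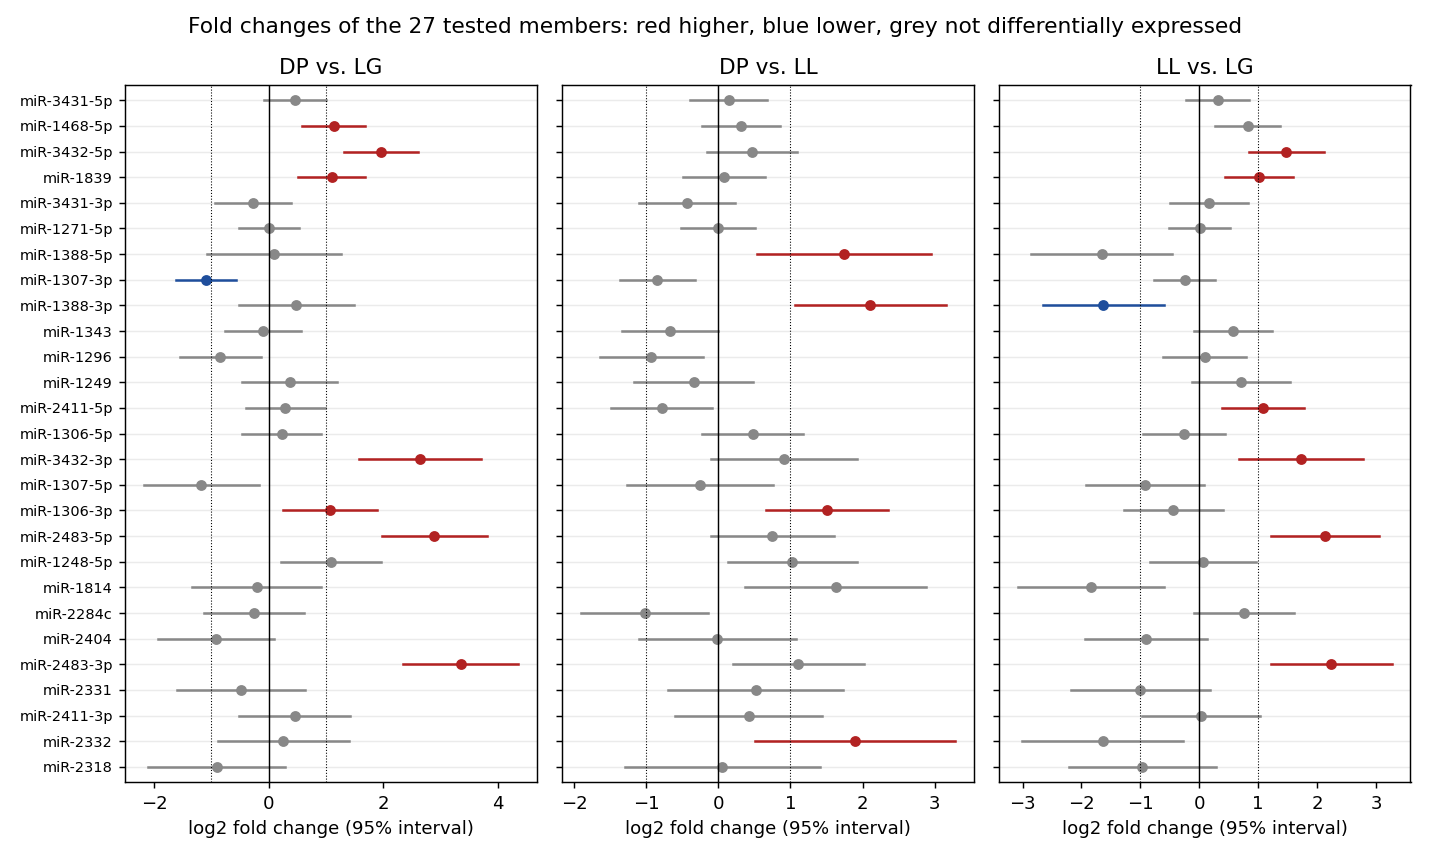
Log2 fold change (points) and 95% interval (lines) of the 27 tested members in each comparison, with dotted lines at −1 and 1 and members ordered by mean level. In DP vs. LG the arms of miR-2483 and miR-3432 lie farthest right, from 1.95 to 3.35, and in DP vs. LL the calls lie to the right only.

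In DP vs. LL, 4 members were higher in DP and 0 were lower. Both arms of miR-1388 and the 3p arm of miR-1306 rose, together with the rare chi-miR-2332. The 4 calls are 14.8% of the 27, beside 26.7% (186) of all tested miRNAs, of which 15.1% were higher and 11.6% lower in DP. At an unadjusted p under 0.05, 7 members were higher and 5 lower by edgeR, beside 166 and 116 of all 696 tested miRNAs. DESeq2 likewise called 0 members lower and 6 higher, beside 90 lower and 117 higher of all tested miRNAs. In 5 of 18 alternative fits 1 member was lower, for instance chi-miR-2411-5p without DP replicate 3 (−1.08, adjusted p = 0.0370). Without LL replicate 1, and also without LL replicate 2, 2 members were called, beside 124 and 128 of all tested miRNAs. With library size only 8 members and 224 of all were called. The libraries did not overlap for 11 of the 27 members (40.7%), beside 41.2% of all tested miRNAs. The medians of the log2 fold change were 0.31 over the members and 0.12 over all.

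miR-1388 was low in LL and varied between goats of each stage. chi-miR-1388-3p had 7.22, 14.6 and 22.9 CPM (LL), 69.7, 39.3 and 83.9 CPM (DP) and 64.8, 28.9 and 44.6 CPM (LG). All LL libraries lay below all others. The comparison with DP gave 2.11 on the log2 scale (SE 0.47, adjusted p = 0.00786). chi-miR-1388-5p had 12.6, 24.1 and 53.0 CPM (LL), 132, 47.8 and 121 CPM (DP) and 132, 63.8 and 86.3 CPM (LG), so that LL replicate 3 lay above DP replicate 2. The difference of 1.74 on the log2 scale (SE 0.54, adjusted p = 0.0340) was not called without LL replicate 1 (1.48, adjusted p = 0.0885 from edgeR's test), LL replicate 2 (1.66, adjusted p = 0.1003), DP replicate 1 (1.39, adjusted p = 0.0923) or DP replicate 3 (1.53, adjusted p = 0.0656). The call was also lost with only both stages in the fit (1.66, adjusted p = 0.0617 from edgeR's test) and was kept in 13 of 18 alternative fits.

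chi-miR-1306-3p was higher in DP than in LL by 1.51 on the log2 scale (SE 0.38, adjusted p = 0.0134), with no overlap between DP and LL. Without LL replicate 2 the adjusted p of edgeR's test was 0.0548 at a log2 fold change of 1.31. Its other arm chi-miR-1306-5p had 4.24, 3.90 and 5.13 CPM (LL) and 4.39, 6.16 and 7.94 CPM (DP), a log2 fold change of 0.48 (95% interval −0.22 to 1.18) that did not pass. chi-miR-2332 had 4, 2 and 3 counts in LL, 5, 27 and 15 in DP and 13, 19 and 30 in LG. At this depth the difference of 1.90 on the log2 scale (SE 0.63, adjusted p = 0.0432) was kept in 4 of 16 alternative fits. chi-miR-1307-3p passed the adjusted p (0.0216) with a log2 fold change of −0.84 (SE 0.24), under the limit on its size.

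**Figure D3:**
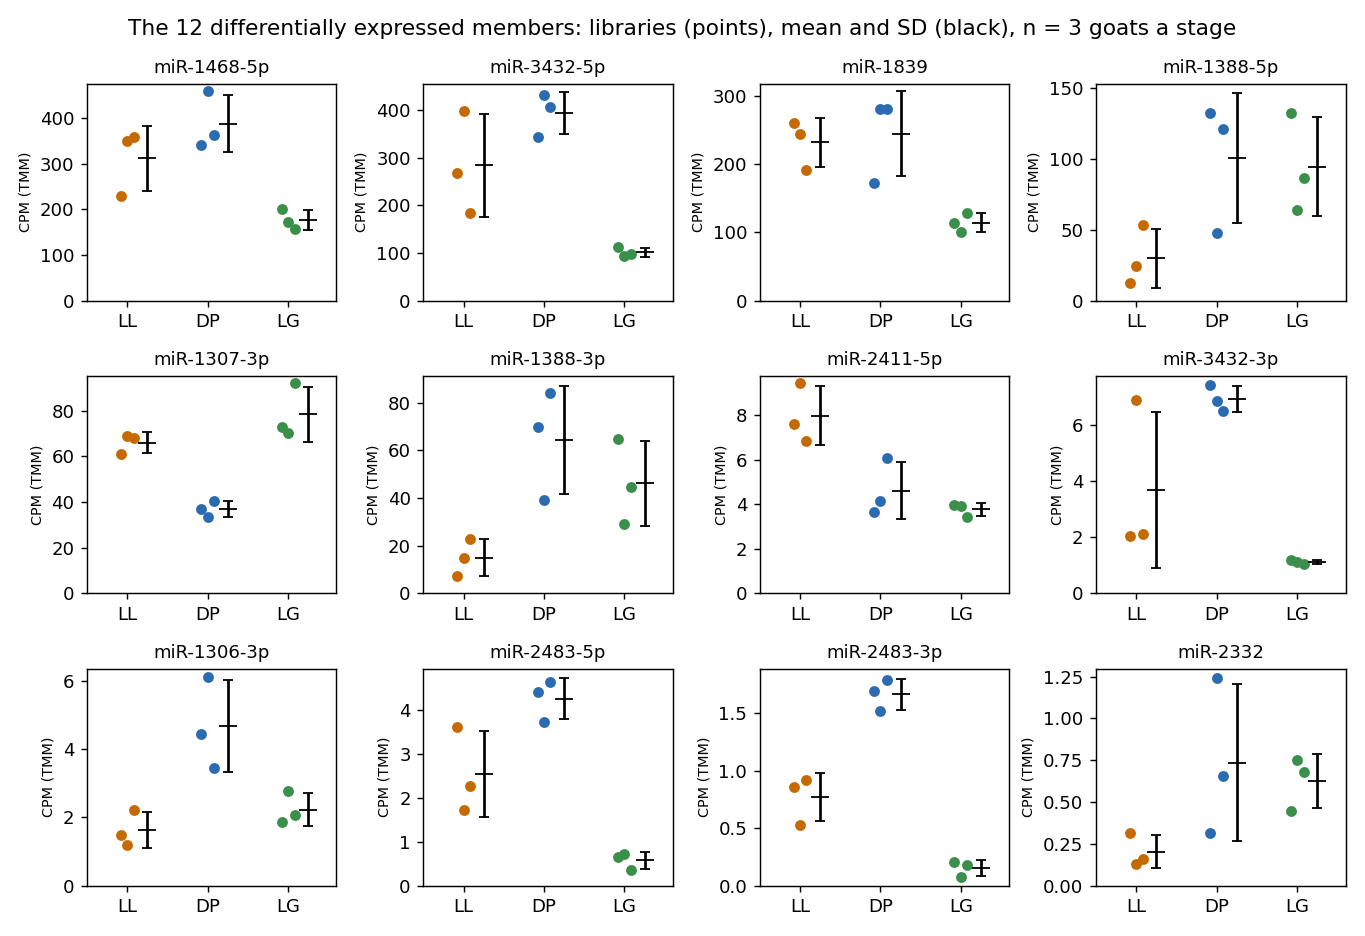
Levels (CPM scaled by TMM, linear axes from 0) of the 12 differentially expressed members in each library (points), with the mean and SD of 3 goats beside them in black. The LG points of both miR-2483 arms, both miR-3432 arms, chi-miR-1468-5p and chi-miR-1839 lie below all LL and DP points, the DP points of chi-miR-1307-3p are the lowest, and chi-miR-1388-3p is lowest in LL.

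In LL vs. LG, 6 members were higher and 1 was lower in LL. Both arms of miR-2483 and of miR-3432 were higher, as were chi-miR-1839 and chi-miR-2411-5p, and chi-miR-1388-3p was lower. The 7 calls are 25.9% of the 27, beside 12.8% (89) of all tested miRNAs, of which 8.91% were higher and 3.88% lower. The arms of miR-2483 come from the same hairpin, as do those of miR-3432, so the 7 calls are not independent. With library size only, 2 members were higher and 5 lower, and all tested miRNAs turned likewise, from 62 higher and 27 lower to 30 and 90. The libraries did not overlap for 18 of the 27 members (66.7%), beside 48.4% of all. Both arms of miR-1388, miR-2483 and miR-3432 are among the 18, and arms were counted separately in both shares. Also among them is chi-miR-2318, which reached 0.5 CPM in 3 libraries only. These were the LG libraries, its highest stage, so it entered the test through that stage alone. The log2 fold change had a median of 0.06 over the members and 0.17 over all tested miRNAs.

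The number called in LL vs. LG fell whichever LL or LG library was left out. It was 0 without LL replicate 1 and 0 without LG replicate 3, although members with an unadjusted p under 0.05 remained in both fits (edgeR). Leaving out LL replicate 2 gave 2 called members, and leaving out LG replicate 1 or LG replicate 2 gave 3 each. Of all tested miRNAs, 36, 54 and 60 were called in these fits, in the same order, in place of 89. Their number fell to 33 when LL replicate 1 was omitted and to 41 when LG replicate 3 was. With all libraries DESeq2 called 7 members and limma-voom 8, beside 123 and 100 of all tested miRNAs.

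chi-miR-2483-5p and chi-miR-2483-3p were higher in LL than in LG on the log2 scale, by 2.14 for 5p (SE 0.42, adjusted p = 0.00788) and by 2.24 for 3p (SE 0.47, adjusted p = 0.0102). The 5p call was kept in 16 of 18 alternative fits and lost without LL replicate 1 or LG replicate 3 (adjusted p of up to 0.0644 by edgeR). The 3p call was kept in 12 of 16 and lost without LL replicate 1, LL replicate 3, LG replicate 2 or LG replicate 3 (up to 0.0596). The same difference was 1.48 for chi-miR-3432-5p (SE 0.29, adjusted p = 0.00788) and 1.73 for chi-miR-3432-3p (SE 0.48, adjusted p = 0.0354). Without LL replicate 2, in which both miR-3432 arms were highest among LL, they were 1.05 (adjusted p = 0.0835 from edgeR's test) and 0.77 (adjusted p = 0.214). Over all alternatives the call of chi-miR-3432-5p was kept in 12 of 18 fits and that of chi-miR-3432-3p in 6 of 18, and with library size only neither was called (0.94 and 1.23). DP vs. LG and LL vs. LG share the LG libraries, so the low level of these 4 in LG enters both. In DP vs. LL none of the 4 passed, with 95% intervals of −0.11 to 1.61 for chi-miR-2483-5p, 0.20 to 2.02 for chi-miR-2483-3p, −0.15 to 1.097 for chi-miR-3432-5p and −0.10 to 1.92 for chi-miR-3432-3p. Without LL replicate 2, chi-miR-3432-3p was called there (1.71, adjusted p = 0.0112 from edgeR's test, in place of 0.91). With library size only, both miR-2483 arms were called, at 1.15 for 5p (adjusted p = 0.0408) and 1.497 for 3p (adjusted p = 0.0187).

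chi-miR-1388-3p was lower in LL than in LG (−1.63 on the log2 scale, SE 0.47, adjusted p = 0.0418). The call was kept in 14 of 18 alternative fits and lost without LL replicate 1, LL replicate 2, LG replicate 1 or LG replicate 3, with an adjusted p of up to 0.0971 (edgeR). That of chi-miR-1388-5p was of the same size, −1.65 (SE 0.54), and missed the limit at an adjusted p of 0.0618, although the libraries did not overlap. It was called in 12 of 18 alternative fits, such as DESeq2 (−1.87, adjusted p = 0.00795) and limma-voom (−1.82, adjusted p = 0.0483). chi-miR-2411-5p, a predicted regulator of the tyrosine kinase SRC, had 7.61, 9.45 and 6.86 CPM (LL), 3.64, 4.14 and 6.06 CPM (DP) and 3.98, 3.91 and 3.42 CPM (LG). LL was its high stage. For chi-miR-2411-5p LL vs. LG gave 1.08 on the log2 scale (SE 0.32, adjusted p = 0.0447), and for chi-miR-1839 it gave 1.02 (SE 0.26, adjusted p = 0.0254). Each of these was called in 2 of 18 alternative fits, and with libraries scaled by size only they were 0.52 and 0.44. The minor arm chi-miR-2411-3p had 0.392 to 1.195 CPM over all libraries and was called in no comparison.

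chi-miR-2404, a predicted regulator of ESR1 (the oestrogen receptor alpha), was called in no comparison. It had 8, 11 and 13 counts in LL, 7, 25 and 10 in DP and 28, 30 and 75 in LG, which gave 0.628 to 0.727, 0.436 to 1.15 and 0.960 to 1.70 CPM. LG lay above LL without overlap, and DP overlapped LG through DP replicate 2. The log2 fold changes were −0.91 in DP vs. LG (SE 0.46, adjusted p = 0.152) and −0.90 in LL vs. LG (SE 0.47, adjusted p = 0.215). Without DP replicate 2 the former was −1.66 (adjusted p = 0.0172 from edgeR's test). With only both stages in the fit the latter was −1.12 (adjusted p = 0.0346).

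Of the 8 most abundant members, 3 were called in no comparison. chi-miR-1271-5p, which shares its seed with miR-96, was the steadiest, with 91.0, 81.4 and 97.5 CPM (LL), 86.4, 79.3 and 104 CPM (DP) and 92.9, 75.9 and 99.6 CPM (LG). The 95% intervals of its log2 fold changes, −0.51 to 0.52 for DP against LG, −0.52 to 0.52 for DP against LL and −0.51 to 0.52 for LL against LG, exclude a change of the size required for a call. With library size only, however, the value in LL vs. LG was −0.59. chi-miR-3431-5p had 357 to 387 CPM in LL, 284 to 487 CPM in DP and 268 to 323 CPM in LG, and its largest log2 fold change was 0.46 (SE 0.24, adjusted p = 0.167) in DP vs. LG. chi-miR-3431-3p had 87.7 to 117, 53.9 to 111 and 79.0 to 109 CPM, with log2 fold changes between −0.44 and 0.17.

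Among the 15 tested members without a call, 3 others lay close to the limit and were picked after their values were seen. chi-miR-1248-5p, whose human hairpin overlaps a small nucleolar RNA, had 2.32 to 5.47 CPM in DP, above all libraries of LL (1.33 to 2.21 CPM) and LG (1.34 to 2.05 CPM), with adjusted p-values of 0.0550 and 0.0793 from edgeR in DP vs. LG and DP vs. LL. chi-miR-1814 was lower in each LL library (0.396 to 0.756 CPM) than in DP (0.872 to 2.89 CPM) and LG (1.34 to 3.08 CPM), with adjusted p-values of 0.0508 against DP and 0.0503 against LG. chi-miR-1296 was below the other stages in DP, with 4.45 to 6.65 CPM against 8.32 to 13.74 CPM (LL) and 8.21 to 11.2 CPM (LG), at adjusted p-values of 0.0501 and 0.0647 in DP vs. LL and DP vs. LG.

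The miR-2284 family was at a low level. Its 5 members together had 35, 42 and 37 counts in LL, 21, 39 and 40 in DP and 42, 39 and 72 in LG. Only chi-miR-2284c was tested. It had 1.30 to 1.72 CPM in LL, 0.439 to 0.873 CPM in DP and 0.755 to 1.09 CPM in LG, with LL above both other stages, and its largest log2 fold change, −1.02 in DP vs. LL (SE 0.40, adjusted p = 0.0770), did not pass. The hairpins of this family are similar in sequence, so reads may be split between members and the value of a single one is uncertain. No 2 rows of the table with a member among them had the same counts throughout.

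The ratio of the arms of a hairpin within a library does not depend on how libraries are scaled. It could be followed for the 6 of 9 hairpins with both arms listed that had at least 3 counts of each arm in every library. The 5p arm dominated for miR-3432, by 58.1 to 132 times in LL, 46.5 to 63.0 times in DP and 85.7 to 96.7 times in LG, so that DP lay below LG and overlapped LL. For miR-2411 it was 10.2 to 19.4 times the 3p arm in LL, above the 3.46 to 6.95 times in DP and the 5.27 to 6.57 times in LG. For miR-3431 the ratio was highest in DP, 4.22 to 6.73, against 3.22 to 4.07 (LL) and 2.74 to 4.08 (LG). The arms of miR-1306 were even in DP replicates 1 and 2, at 0.986 and 1.01, and the ratio was 1.99 to 3.28 in LL and LG and 2.30 in DP replicate 3. For miR-1388 it was 1.65 to 2.32 in LL, 1.22 to 1.89 in DP and 1.94 to 2.21 in LG. miR-1307 was the hairpin with a dominant 3p arm, and the 5p arm had 0.0315 to 0.0940 times its counts, with all stages overlapping. These ratios were not tested.

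**Figure D4:**
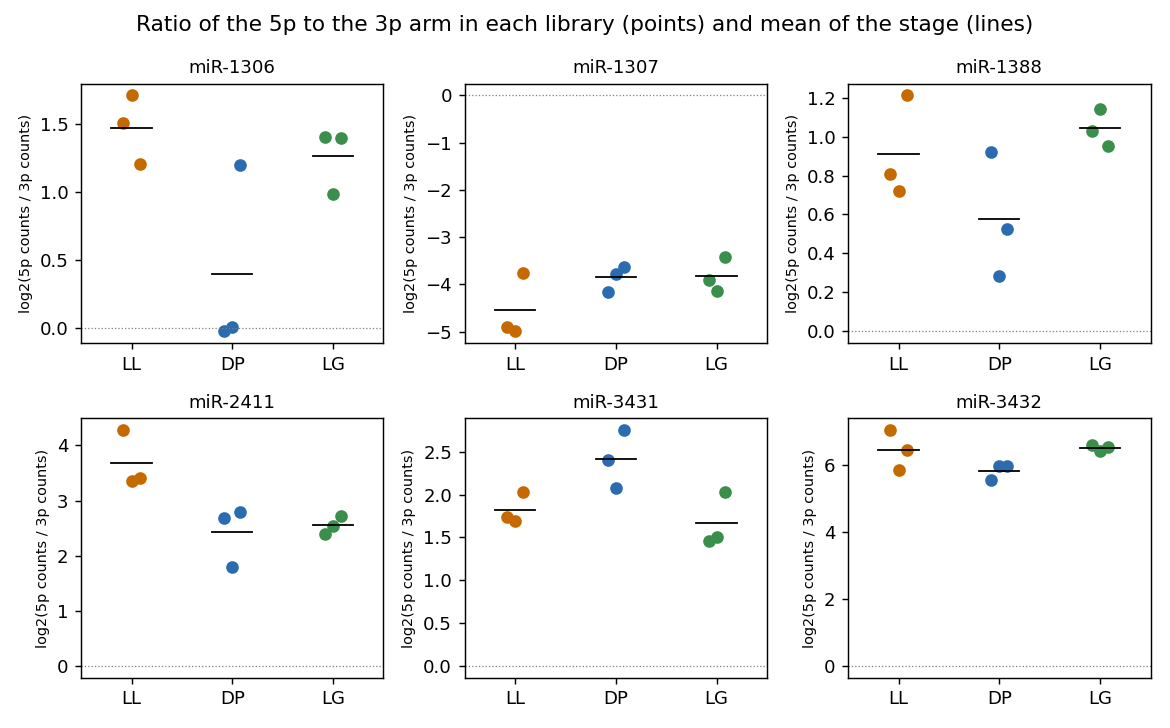
Log2 ratio of 5p to 3p counts in each library (points) and its mean per stage (lines) for the 6 hairpins with at least 3 counts of each arm in every library, with a dotted line at equal arms. miR-3431 is highest in DP and miR-2411 in LL without overlap, and the miR-1306 points of DP replicates 1 and 2 lie at 0.

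Over the 3 comparisons the members gave 19 calls, on 12 miRNAs. In every alternative fit that tested them, 6 of the 19 were kept. These were both arms of miR-2483, both arms of miR-3432 and chi-miR-1307-3p in DP vs. LG, and chi-miR-1388-3p in DP vs. LL. In fewer than 50% of the alternative fits, 7 were kept.

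**Figure D5:**
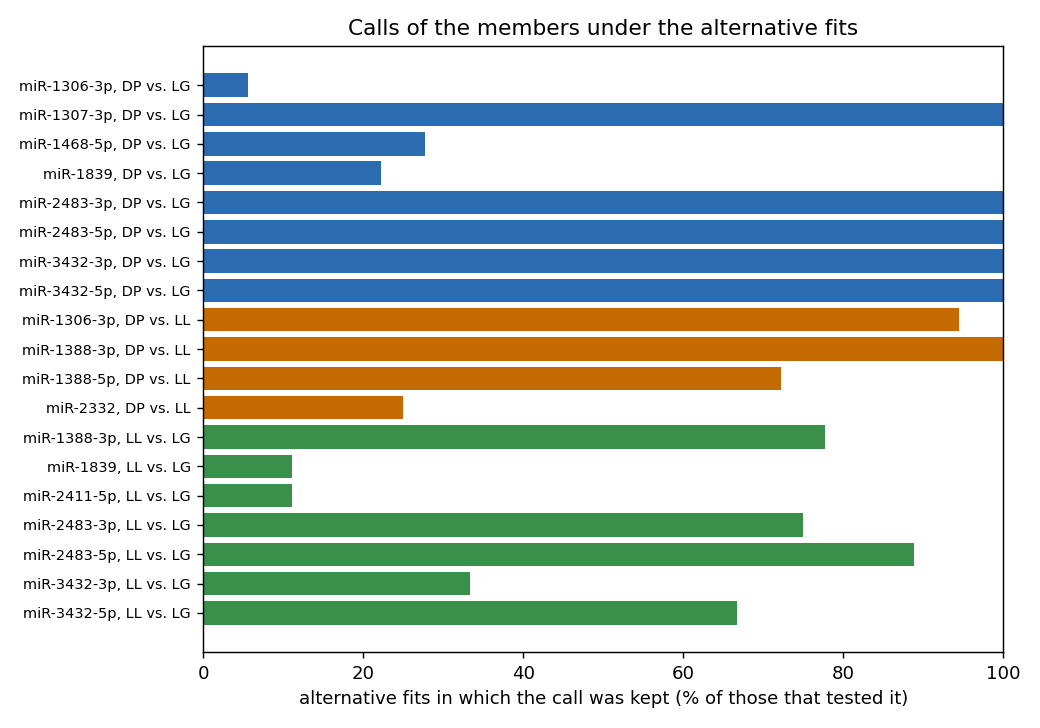
Share of the alternative fits (other tools, scalings and filters, and each library left out) in which each of the 19 calls was kept, in percent of the fits that tested the miRNA, by comparison (blue DP vs. LG, orange DP vs. LL, green LL vs. LG). Of the 19 bars 6 reach 100%, and that of chi-miR-1306-3p in DP vs. LG, kept in 1 of 18 fits, is the shortest.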

How the data were processed

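Small RNA libraries of mammary gland tissue were analysed for LL, DP and LG. The authors mapped trimmed reads with miRDeep2 to the goat assembly ARS1.2, combined known miRNAs of miRBase with predicted ones, and deposited read counts per mature miRNA without normalization (the submitters' processing notes name FastQC 0.11.9, cutadapt 4.2 and Bowtie 1.1.1). The deposited column of LL replicate 3 was taken to hold estimated counts, because some values end in a fraction, and was rounded to whole numbers. Stages and replicate numbers came from the sample labels.

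Members and lists were chosen with earlier results of these data known. Tests used edgeR 4.0.16 in R 4.3.3 (TMM, glmQLFit, glmQLFTest) with the stage as the only term, and were tested on simulated data. The SE is the absolute log2 fold change divided by the square root of F. Results were recomputed with limma-voom (limma 3.58.1), DESeq2 1.42.0, other scalings and filters, fits of 2 stages, the replicate number as a block, and without single libraries. Named members are 4 listed with the choice of members (chi-miR-1307-3p, chi-miR-2404, chi-miR-2411-5p and chi-miR-3432-5p), all called ones, the 8 most abundant and their other arms. Columns of all 9 samples were used. The p-values set the difference between stages against the spread between goats within stages.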

Additional observations from a re-analysis of the deposited data

How the results depend on the processing

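With libraries scaled by size only, 8 members were called in DP vs. LL in place of 4, and with only both stages in the fit 2 were. Of all tested miRNAs 224 and 144 were called in these fits, in place of 186. The split into higher and lower calls moved with the scaling. In DP vs. LG it was 4 and 2 with the upper quartile and with library size only, and 4 and 3 without chi-miR-148a-3p in the scaling, in place of 7 and 1. In LL vs. LG it was 4 and 3, 2 and 5, and 3 and 3 in the same order, in place of 6 and 1, and in DP vs. LL 3 and 1 without chi-miR-148a-3p. Other tools and filters moved it too: in DP vs. LG it was 4 and 3 with DESeq2 or no filter and 3 and 3 with at least 10 counts in every library, and in LL vs. LG 4 and 3 with DESeq2, 3 and 3 with no filter, 3 and 2 with at least 10 counts and 2 and 5 with only both stages in the fit. Library size only moved the median log2 fold change of all tested miRNAs from 0.18 to −0.02 in DP vs. LG, from 0.12 to 0.49 in DP vs. LL and from 0.17 to −0.42 in LL vs. LG. With each library left out in turn, the members called ranged from 5 to 9 in DP vs. LG, 2 to 5 in DP vs. LL (2 without LL replicate 1 or 2) and 0 to 9 in LL vs. LG. Over all tested miRNAs the ranges in these fits were 152 to 248, 124 to 192 and 33 to 125 in the same order. Of all tested miRNAs in LL vs. LG, 141 were called with only both stages in the fit, 36 without LL replicate 2 and 54 without LG replicate 1, in place of 89. The causes were not tested. Without chi-miR-148a-3p in the total, the members' share of the counts was 0.277% in LL, 0.214% in DP and 0.243% in LG, and without their most abundant member it was 0.0990%, 0.152% and 0.104%. The replicate numbers name different goats. Deviations of libraries with the same number correlated between −0.10 and 0.21. With the replicate block 9, 3 and 5 members were called in DP vs. LG, DP vs. LL and LL vs. LG. Of all tested miRNAs 222, 170 and 88 were called in the same order. No call of a named member changed its direction in any alternative. The 11 members with at most 14 counts were tested only in the fit without a filter, where edgeR called 0 of them in each comparison and 0, 0 and 1 had an unadjusted p under 0.05 in DP vs. LG, DP vs. LL and LL vs. LG. The 1 was chi-miR-2335, picked after its values were seen, with 0 counts in each LL library and 4, 5 and 8 in LG (adjusted p = 0.0682).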
